A study of Mus musculus with 3 samples.

Results

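Transcellular calcium absorption was examined through 5 genes, S100g, Trpv6, Atp2b1, Vdr and Cyp24a1. They were chosen by name, 5 of the 51912 genes in the count tables, after earlier results of the same comparison of Arid3a cKO with WT were known. Their differences between genotypes are therefore given as values, with no test. The data are single-cell RNA-sequencing (scRNA-seq) libraries of sorted mouse intestinal epithelium, 2 from Arid3a cKO mice (VillinCreERT2, Arid3a fl/fl) and 1 from a WT mouse that carries VillinCreERT2 without the floxed gene. VillinCreERT2 is a Cre recombinase under the Villin promoter, active in intestinal epithelial cells after tamoxifen, so both genotypes carry the recombinase. Both received tamoxifen at an age of 8 to 10 weeks and were harvested 1 month after the first injection. Living Epcam-positive, CD45-negative and CD31-negative cells from dissociated crypts were sorted before library preparation. The labels give the tissue as intestine and name no segment. The scRNA-seq methods name no segment either, and refer for dissociation to a sorting protocol for another mouse line (Lgr5-EGFP-ires-CreERT2). That protocol takes crypts from the proximal jejunum, the part of the small intestine that follows the duodenum. The Villin promoter is active along the whole epithelium, and the deletion reaches every Villin-positive cell, not enterocytes alone.

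Enterocytes, the absorptive cells of the intestine, move dietary calcium through the cell in successive steps. Calcium enters at the lumen through the channel Trpv6, is carried across the cytosol by the calcium-binding protein S100g (calbindin-D9k), and is pumped into the blood at the basolateral side by the plasma membrane calcium pump Atp2b1. Vdr, the vitamin D receptor, binds the active hormone and, with a retinoid X receptor partner, raises transcription of several of these genes, among them Cyp24a1, whose enzyme breaks the hormone down. The pathway is best known in the duodenum, the first segment of the small intestine.

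The genes lie on different chromosomes of GRCm38. S100g (ENSMUSG00000040808) is on chromosome X, 162961992 to 162964599, minus strand, and Trpv6 (ENSMUSG00000029868) is on chromosome 6, 41620624 to 41636405, minus strand. Atp2b1 (ENSMUSG00000019943) is on chromosome 10, 98914406 to 99026143, plus strand. Vdr (ENSMUSG00000022479) is on chromosome 15, 97854425 to 97910630, minus strand, and Cyp24a1 (ENSMUSG00000038567) is on chromosome 2, 170482708 to 170497145, minus strand. All 5 are protein-coding. S100g overlaps Ctps2 and Cyp24a1 overlaps Pfdn4, each on the opposite strand, and the other 3 overlap no annotated gene. Whether the counting used the strand is not given in the sources used here.

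The promoters of S100g, Trpv6 and Atp2b1 are shown because these are the 3 transport steps, and because they differ in composition. Each sequence runs 5′ to 3′ on the strand of its gene, from 250 bases before to 50 bases after the RefSeq start (GRCm38.p6). Capitals mark matches, on either strand, to AGGTCA (the core element bound by nuclear receptors), CAAAGTCC (the HNF4 element), GTTAAT (HNF1), ATTAAA (ARID3A), TTTATG (CDX2) or TATAAA (the TATA box). The matches in these windows do not overlap each other. The positions are chrX:162964550-162964849 (minus strand) for S100g, chr6:41636356-41636655 (minus strand) for Trpv6 and chr10:98914392-98914691 (plus strand) for Atp2b1.
S100g: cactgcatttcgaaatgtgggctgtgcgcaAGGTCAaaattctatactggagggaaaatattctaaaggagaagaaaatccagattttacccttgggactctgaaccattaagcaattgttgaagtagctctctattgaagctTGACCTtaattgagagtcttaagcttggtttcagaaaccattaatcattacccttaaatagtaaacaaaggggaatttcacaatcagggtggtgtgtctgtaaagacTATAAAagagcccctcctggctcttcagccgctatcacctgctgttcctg
Trpv6: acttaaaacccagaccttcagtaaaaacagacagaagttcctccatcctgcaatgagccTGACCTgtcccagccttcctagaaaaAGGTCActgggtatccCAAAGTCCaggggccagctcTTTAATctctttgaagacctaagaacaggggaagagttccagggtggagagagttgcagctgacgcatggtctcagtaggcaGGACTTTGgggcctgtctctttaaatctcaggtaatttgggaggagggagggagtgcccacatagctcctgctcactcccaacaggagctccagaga
Atp2b1: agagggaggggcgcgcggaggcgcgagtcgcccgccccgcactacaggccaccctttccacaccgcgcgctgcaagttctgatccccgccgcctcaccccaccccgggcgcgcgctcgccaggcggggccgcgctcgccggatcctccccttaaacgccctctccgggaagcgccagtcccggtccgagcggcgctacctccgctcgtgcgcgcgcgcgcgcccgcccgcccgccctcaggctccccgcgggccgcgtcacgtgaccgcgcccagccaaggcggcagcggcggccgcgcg
The S100g window held 2 matches to AGGTCA and a TATAAA, which began at the RefSeq start and not upstream of it. The Trpv6 window held 2 matches to AGGTCA, 2 to CAAAGTCC and 1 to ATTAAA. Neither Atp2b1 start nor the Vdr promoter held a match to any of these letters. Among 32851 promoters of the same length, 16.3% held AGGTCA, 1.42% held CAAAGTCC, 7.1% GTTAAT, 13.9% ATTAAA, 11.9% TTTATG and 13.6% TATAAA. G and C made up 41% of the S100g window, 51.3% of that of Trpv6, 61.3% of that of Vdr and 79.3% of that of Atp2b1, against a median of 52.7% over all promoters. These are matches of letters, and binding was not measured.

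Values are given in CPM, the UMIs (unique molecular identifiers, 1 per captured transcript) of a gene scaled to a common total over all UMIs of the same cells, listed with Arid3a cKO 1 first, then Arid3a cKO 2, and WT last. The kept cells numbered 2134, 1550 and 1910, with 70922480, 58169310 and 62694008 UMIs and medians of 29895 to 35764 UMIs per cell. Arid3a itself, the deleted gene, was at 0.592, 0.894 and 2.57 CPM over all kept cells, lower in both cKO libraries, though counts near the 3′ end of a transcript do not measure the deleted part separately. The library pairs shared 11 to 18 cell barcodes. All intervals are 95% intervals and cover counting error only. With 1 WT library the difference between genotypes has no replicate check on the WT side, and genotype cannot be told apart from the animal or library.

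The 5 genes fell into an abundant set and a set close to absence. In enterocyte-like cells (866, 657 and 763 cells in 5 clusters, named from marker genes) S100g was by far the most abundant. S100g was at 2239, 3142 and 1181 CPM, from 60475, 67351 and 26569 UMIs. Both cKO libraries were above WT, 1.89-fold and 2.66-fold, and they differed from each other as well. Atp2b1, the pump, was at 342, 366 and 239 CPM, 1.43-fold and 1.53-fold above WT, with both cKO libraries close together. Vdr was at 184, 189 and 183 CPM, a difference between genotypes of less than the gap between the cKO libraries.

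The log2 ratio of each cKO library to WT, with 5 CPM added to both, was 0.92 and 1.41 for S100g, 0.51 and 0.61 for Atp2b1 and 0.01 and 0.05 for Vdr. The means were 1.16 ± 0.345 (SD between the cKO libraries, n = 2), 0.56 ± 0.0679 and 0.03 ± 0.0277. All 3 of these genes were higher in both cKO libraries than in WT, which was so for 41.5% of the 4720 genes with a mean of at least 20 CPM. For Vdr this did not hold with TMM scaling, which put Arid3a cKO 1 at -0.03. S100g and Atp2b1 were at least 0.5 higher on the log2 scale in both cKO libraries, against 0.678% of all genes. Markers of other cell types in these cells differed between libraries. The 8 goblet markers summed to 262, 465 and 882 CPM, the 9 Paneth markers to 319, 277 and 386 CPM and the 10 immune markers to 4.26, 34.4 and 54.0 CPM, each highest in WT. The 9 ISC markers summed to 33.4, 26.2 and 23.5 CPM, the 13 TA markers to 160.3, 135 and 127 CPM and the 18 enterocyte markers to 98932, 108138 and 91726 CPM, each lowest in WT. The 9 tuft markers summed to 6.33, 1.07 and 2.0 CPM and the 10 enteroendocrine markers to 47.4, 46.4 and 83.2 CPM, while 4 of 5 endothelial and stromal markers were at 0 in every library. Their part in the S100g and Atp2b1 values was not tested.

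By mean log2 ratio S100g ranked 5 from the top of the 4720 genes, Atp2b1 32 and Vdr 2141, beside a median of 0.01 over all genes. Since the genes were chosen with this contrast known, these shares describe where they lie and test nothing.

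Trpv6, the entry channel, was barely detected. Over all 5594 kept cells it had 20 UMIs in 15 cells, 6, 10 and 4 UMIs by library. Enterocyte-like cells held 5, 9 and 1 of them, which is 0.185 CPM (0.0601 to 0.432), 0.42 CPM (0.192 to 0.797) and 0.0445 CPM (0.00113 to 0.248). These intervals overlap, which is not a test, and 4 of the 9 UMIs in Arid3a cKO 2 came from 1 cell. Whether Trpv6 differs between genotypes was not tested at these low counts. Cyp24a1, the vitamin D 24-hydroxylase, had 25 UMIs in 16 cells. They were 20 UMIs in Arid3a cKO 1 (13 cells), 5 in WT (3 cells) and 0 in Arid3a cKO 2, where a count of 0 allows up to 0.0516 CPM. In enterocyte-like cells Cyp24a1 had 2, 0 and 5 UMIs, while 13 of the 20 UMIs of Arid3a cKO 1 lay in 7 ISC- and TA-like cells. No fold is given for either gene.

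Where the genes were found differed more than the genotypes did. The 5 enterocyte-like clusters were formed without any of the 5 genes, and the 3 large ones are called here by leading genes, Ms4a18, Tmprss15 and Dnase1. The Tmprss15 cluster, named for the enteropeptidase gene, held 150, 127 and 105 cells. There S100g was at 8960.3, 11661 and 5985 CPM, and S100g led the cluster although it had no part in forming it. In the Ms4a18 cluster S100g was at 1276, 1756 and 703 CPM, and in the Dnase1 cluster, which carries the transporter genes Cubn and Slc5a12, at 239, 406 and 153 CPM. Within a library the Tmprss15 cluster was 28.7 to 39.2 times above the Dnase1 cluster and 6.64 to 8.51 times above the Ms4a18 cluster. S100g was thus lower in the Dnase1 cluster than in the Tmprss15 and Ms4a18 clusters. The 18 enterocyte markers together were higher in the Dnase1 cluster (115775 to 132858 CPM) than in the Tmprss15 cluster (89123 to 106529 CPM). The clusters are not ranked here by maturity or by region.

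Atp2b1 was also highest in the Tmprss15 cluster, over a narrower range. Its level in the Tmprss15 cluster was 971, 908 and 700 CPM. It was 216, 249 and 156 CPM in the Ms4a18 cluster and 186, 196 and 159 CPM in the Dnase1 cluster. The Tmprss15 cluster was thus 4.40 to 5.22 times above the Dnase1 cluster, while the Ms4a18 and Dnase1 clusters of WT lay close together. Vdr was nearly even, at 239, 233 and 239 CPM in the Tmprss15 cluster, 154, 166 and 166 CPM in the Ms4a18 cluster and 186, 185 and 182 CPM in the Dnase1 cluster. Trpv6 UMIs in the Tmprss15 cluster numbered 5, 3 and 0, among 7 of its 382 cells.

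**Figure D1:**
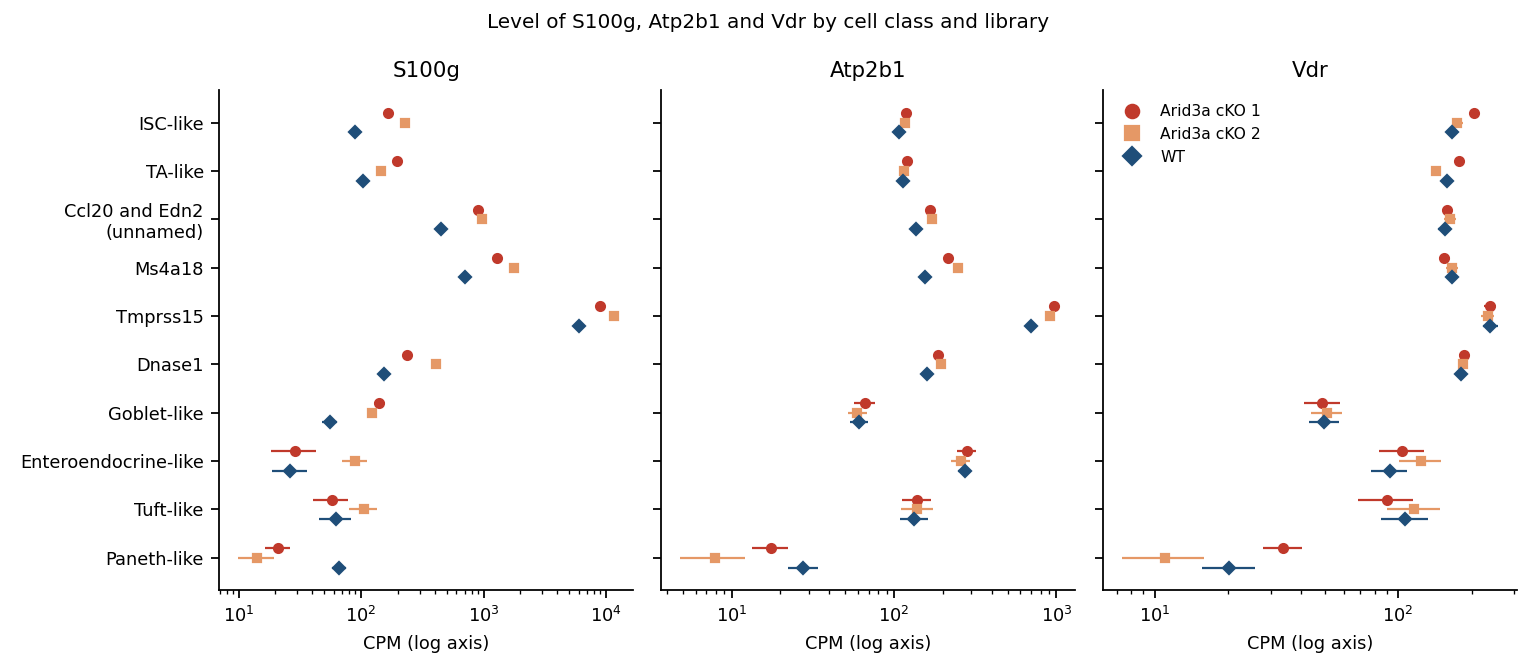
Level of S100g, Atp2b1 and Vdr (CPM, log axis) in each cell class or cluster, 1 point per library with its 95% Poisson interval. S100g peaks in the Tmprss15 cluster at 5985 to 11661 CPM, Atp2b1 peaks in the same cluster at 700 to 971 CPM, and Vdr stays between 143 and 239 CPM in the stem, TA and enterocyte clusters shown.

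Within each of the 3 large enterocyte clusters the cKO libraries again lay above WT for S100g and Atp2b1. The mean log2 ratio of S100g was 0.77 ± 0.269 in the Tmprss15 cluster, 1.08 ± 0.325 in the Ms4a18 cluster and 1.01 ± 0.530 in the Dnase1 cluster (SD, n = 2). That of Atp2b1 was 0.42 ± 0.068, 0.56 ± 0.144 and 0.26 ± 0.0531 in the same order. For Vdr the means were -0.02, -0.05 and 0.03. Among genes of at least 20 CPM, 34.4% were higher in both cKO libraries in the Tmprss15 cluster, 35.2% in the Ms4a18 cluster and 34.7% in the Dnase1 cluster. The clusters also differed in size, since the Tmprss15 cluster made up 17.3% (14.9 to 20%), 19.3% (16.4 to 22.6%) and 13.8% (11.4 to 16.4%) of enterocyte-like cells. It held 73.2%, 75.7% and 71.7% of their S100g UMIs and 51.9%, 50.6% and 41.5% of their Atp2b1 UMIs. With the clusters weighted as in WT the mean log2 ratio of S100g was 0.85 and that of Atp2b1 0.41. With equal weights they were 0.79 and 0.40. Equal weights count the smaller clusters, described below, as much as the 3 large ones. The part of cluster sizes, or of shifts of cells within a cluster, in the S100g and Atp2b1 values was not tested.

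The smaller clusters were less even. In a cluster of 146 cells led by Gm42418 and Lars2, with a median of 11.7% mitochondrial UMIs and 4 of 18 enterocyte markers, S100g was at 123, 759.8 and 215 CPM, so WT lay between the cKO libraries. In the interferon-response cluster led by Ifit3 (25, 14 and 20 cells) S100g was at 1417, 1355 and 919 CPM, but 1 cell gave 83.6%, 73.7% and 67.5% of these UMIs. Without that cell in each library the levels were 246, 386 and 320.1 CPM, and WT again lay between. A cluster led by 1500035N22Rik, Ccl20 and Edn2 (739 cells) met no naming rule and is left unnamed. There S100g was at 902, 969.7 and 446 CPM, Atp2b1 at 167, 170.3 and 136 CPM and Vdr at 159, 163 and 155 CPM.

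**Figure D2:**
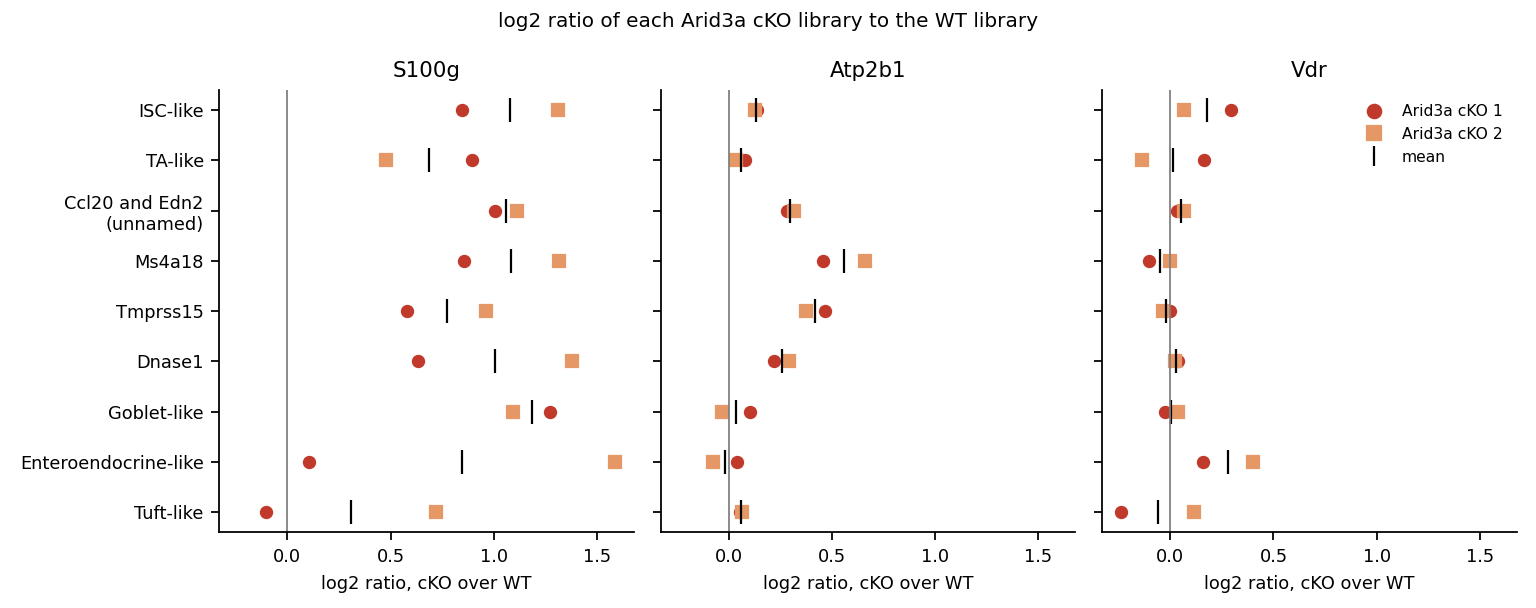
log2 ratio of each Arid3a cKO library to the WT library (CPM + 5) for S100g, Atp2b1 and Vdr by class or cluster, 1 point per cKO library and a bar at their mean. For S100g both libraries are above 0 in every class shown but tuft-like cells (Paneth-like cells, where both are below 0, and the small Gm42418, Ifit3 and Ghrl clusters are not shown), for Atp2b1 the means reach 0.56 in the Ms4a18 cluster, and for Vdr the points lie on either side of 0.

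Single cells showed a wide spread of S100g within each cluster. In the Tmprss15 cluster the median cell had 5406, 7973 and 3729 CPM, with 10th to 90th percentiles of 829 to 20297, 1394 to 24945 and 464 to 14428 CPM. In the Ms4a18 cluster the medians were 341, 296 and 102 CPM, and in the Dnase1 cluster 59.8, 59.9 and 28.7 CPM. The medians were higher in both cKO libraries in each of the 3 clusters. In the Tmprss15 cluster the other percentiles were higher too, whereas in the Dnase1 cluster the 10th percentile was 0 in every library and in the Ms4a18 cluster it was 0 in Arid3a cKO 2 and WT. No single cell gave more than 5.05% of the S100g UMIs in the Tmprss15 cluster. In the Ms4a18 cluster 1 cell of Arid3a cKO 2 gave 23.1% of them, and the levels without the highest cell of each library were 1227, 1371 and 654 CPM. In the Dnase1 cluster 1 cell of Arid3a cKO 2 gave 20.9%, and the levels without the highest cells were 222, 323 and 131 CPM.

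**Figure D3:**
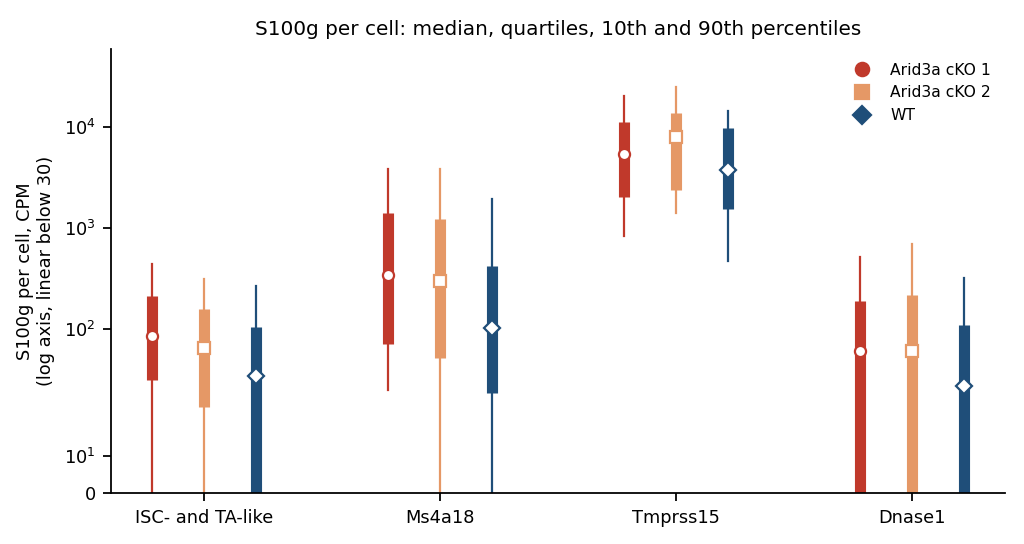
S100g per cell (CPM, log axis that is linear below 30) in 4 cell groups, with the median (marker), quartiles (thick line) and 10th to 90th percentiles (thin line) of each library. The medians of both cKO libraries are above that of WT in each group, for example 341 and 296 against 102 CPM in the Ms4a18 cluster and 5406 and 7973 against 3729 CPM in the Tmprss15 cluster.

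To compare shares of positive cells at equal depth, each cell was thinned to 5000 UMIs. Enterocyte-like cells with at least 1 S100g UMI were then 58.1% (54.8 to 61.5%), 56.4% (52.5 to 60.4%) and 42.9% (39.3 to 46.5%), from 853, 629 and 749 cells, with 13, 28 and 14 shallower cells left out. Before thinning they were 83.3%, 82.2% and 66.8%. In the Tmprss15 cluster nearly every cell was positive after thinning, 99.3%, 98.4% and 94.2%. The share was 68%, 58.2% and 46.6% in the Ms4a18 cluster and 37.1%, 37.5% and 26.4% in the Dnase1 cluster, higher in both cKO libraries in each. In the Ifit3 cluster it was highest in WT, with 33.3%, 42.9% and 65% of 24, 14 and 20 cells.

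S100g was also counted in cells that are not enterocytes. ISC- and TA-like cells (stem and transit-amplifying cells, 677, 483 and 613) had 183, 179.6 and 97.5 CPM, a mean log2 ratio of 0.86 ± 0.0157 (SD, n = 2) that ranked 7 of 5597 genes. S100g, as in enterocytes, was higher in both cKO libraries than in WT, as were 38.2% of these genes. Taken apart, the log2 ratios were 0.85 and 1.31 in ISC-like cells and 0.90 and 0.48 in TA-like cells. The cKO libraries thus differed more within each class than in the pooled cells. The value of Arid3a cKO 2 rested in part on 1 cell with 830 of the 3756 S100g UMIs, and without the highest cell of each library the levels were 177, 140.3 and 89.8 CPM. After removal of the cells that Scrublet marked as doublets the log2 ratios were 0.81 and 0.37. Atp2b1 in ISC- and TA-like cells was 119, 117 and 111 CPM, and Vdr 190.02, 156 and 162 CPM, so WT lay between the cKO libraries for Vdr.

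RNA released from broken cells can give UMIs in cells that do not express a gene. S100g was therefore also read in classes not known to absorb calcium. S100g was at 141, 124 and 55.5 CPM in goblet-like cells, 57.4, 105.4 and 62.0 CPM in tuft-like cells, 28.6, 89.0 and 26.3 CPM in enteroendocrine-like cells and 20.8, 14.2 and 66.5 CPM in Paneth-like cells. In Paneth-like cells WT was the highest, with 1 cell giving 60.4% of its UMIs, and in tuft-like cells WT lay between the cKO libraries. A single cell gave 37.5%, 48.6% and 10.3% of the enteroendocrine-like UMIs and 28.2%, 49.2% and 31.9% of the tuft-like UMIs. Without the highest cell of each library, goblet-like cells were at 113, 58.5 and 46.4 CPM. The share of thinned goblet-like cells with a UMI was 22%, 20.9% and 15.9% (median depths of 24023, 31454 and 26495 UMIs), against 39.9%, 35.5% and 24.9% in ISC- and TA-like cells (32224, 39367 and 32448 UMIs). In goblet-like cells, where S100g was 13.2%, 9.08% and 10.6% of its level over all kept cells of the library, it was higher in both cKO libraries too, and 1 cell gave 53.1% of the goblet-like UMIs of Arid3a cKO 2. Against the 18 enterocyte markers, S100g stood at 41.1, 35.0 and 20.7 UMIs per 1000 marker UMIs in ISC- and TA-like cells, 28.6, 21.8 and 10.8 in goblet-like cells and 24.9, 29.9 and 13.7 over all kept cells. The part of free RNA in the S100g of ISC- and TA-like cells was not tested. Nor was the part of free RNA or of doublets in the other classes.

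Cells were next ordered by a lineage score, the mean log level of enterocyte markers minus that of ISC and TA markers, and cut into 5 bins over 4798 cells. The study, with an order inferred by another method (pseudotime), already reports raised S100g in Arid3a cKO cells placed earlier in that order. In the bins used here, S100g was low nearest the stem end, at 104, 77.5 and 66.9 CPM. It was highest in the fourth bin, at 3085, 4260.2 and 1644 CPM, and lower again in the fifth, at 1531, 1885 and 795 CPM. The log2 ratios to WT were 0.60 and 0.20 in the first bin, 1.17 and 1.07 in the second, 1.28 and 1.76 in the third, 0.91 and 1.37 in the fourth and 0.94 and 1.24 in the fifth. Both cKO libraries were thus above WT in all 5 bins, by least in the first. With 10 bins, however, the bin nearest the enterocyte end had S100g at 416, 769 and 546 CPM, so that Arid3a cKO 1 was below WT there, with log2 ratios of -0.39 and 0.49.

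Atp2b1 parted from WT later along this order. Its log2 ratios were 0.10 and 0.05 in the first bin, 0.18 and 0.10 in the second, 0.36 and 0.57 in the third, 0.68 and 0.62 in the fourth and 0.35 and 0.49 in the fifth. In the fourth bin its levels were 437, 419.8 and 272 CPM. With 10 bins, the bin nearest the enterocyte end had Atp2b1 at 201.5, 250.2 and 203.1 CPM, so WT lay between the cKO libraries there. Vdr was at 221, 181 and 186 CPM in the first bin and 195, 195 and 194 CPM in the fifth, with the libraries closest together at the enterocyte end.

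**Figure D4:**
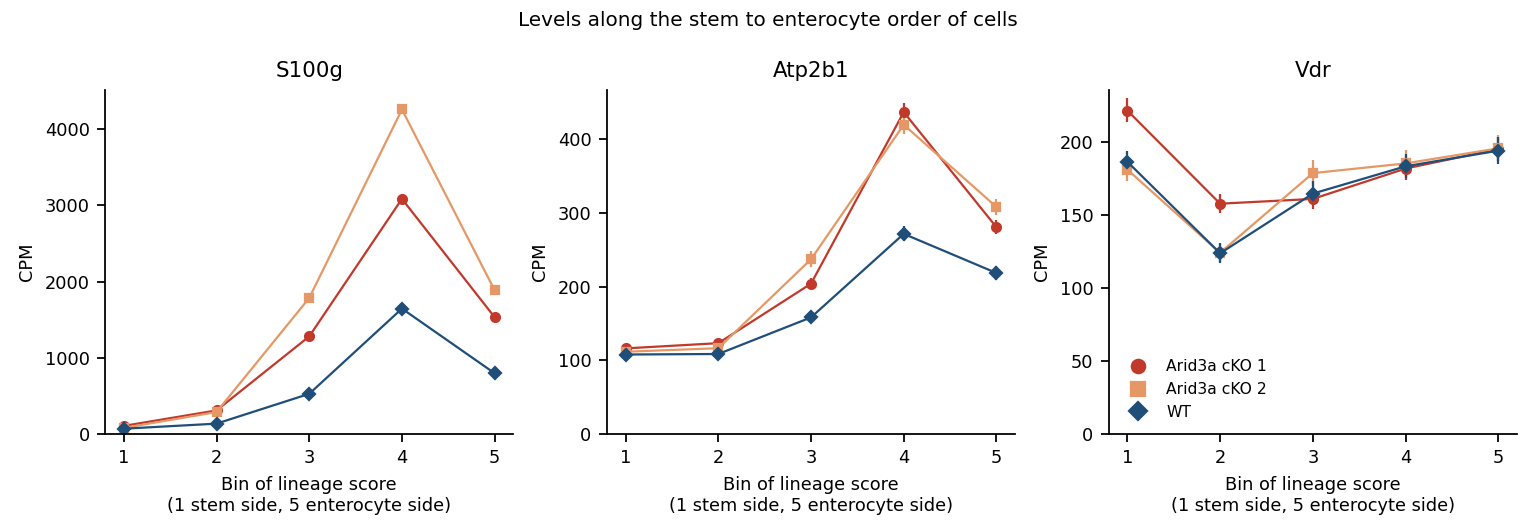
Levels of S100g, Atp2b1 and Vdr (CPM, linear axes from 0) in 5 bins of the lineage score, 1 line per library with 95% Poisson intervals. S100g and Atp2b1 peak in the fourth bin, with S100g at 3085 and 4260.2 CPM in the cKO libraries and 1644 CPM in WT, while the Vdr lines meet in the last 2 bins.

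The pattern of each gene over classes was compared with that of other genes. Over 35 points (a class or cluster in 1 library with at least 20 cells, so that points of 1 library share its depth) the Pearson correlation of log2 (CPM + 5) with S100g was highest for Slc40a1 (0.95), the iron exporter ferroportin, followed by Sult6b2 (0.92), Plut (0.91), Fth1 (0.89), the ferritin heavy chain, and Ugt2b5 (0.88). Atp2b1 was at 0.72 (rank 319 of 9228 genes) and Vdr at 0.63 (rank 812). Trpv6 never exceeded 1.35 CPM at these points, too low for a correlation. Between single thinned enterocyte-like cells of 1 library, the Spearman correlation of S100g with Atp2b1 was 0.45, 0.51 and 0.38, and with Vdr 0.04, 0.13 and 0.05. Within the Tmprss15 cluster alone S100g and Atp2b1 correlated at 0.28, 0.36 and 0.26. These correlations are descriptions, since cells of a library are not replicates.

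Most of the remaining calcium and vitamin D genes did not pass the test. Of 40 such genes in 6 lists, 26 could be tested in enterocyte-like cells with the quasi-likelihood test of edgeR on summed UMIs, and 1 rose and 1 fell at an adjusted p below 0.05, with 6 at an unadjusted p below 0.05. Over all 12594 genes tested, the members left out, 297 (2.36%) passed, 113 (0.897%) higher in cKO and 184 (1.46%) lower. The test has 1 residual degree of freedom and assumes that the single WT library varies like the cKO libraries. No label ties a library to a mouse, so the p-values speak of these samples only. The spread behind them comes from the 2 cKO libraries and, more heavily (15.26 prior degrees of freedom), from the trend over all genes.

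Slc30a10, a manganese exporter gene that responds to vitamin D, rose from 51.8 CPM in WT to 83.8 and 81.9 CPM, a log2 change of 0.67 (adjusted p = 0.000856, edgeR). Anxa2, whose protein binds S100a10 in a complex that brings calcium channels to the membrane, fell from 481 CPM to 293 and 308 CPM (log2 change of -0.69, adjusted p = 0.00222, edgeR). S100a10 itself, chosen after its values were seen, was at 801, 765 and 649 CPM and did not pass (log2 0.26, adjusted p = 0.395, edgeR). Both called genes also passed with DESeq2. The study names Slc30a10 as an HNF4 target too, and reports more accessible chromatin at its promoter in the Arid3a cKO intestine. The part of vitamin D or of HNF4 in the Slc30a10 values was not tested.

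The other lists held no called gene. Among cytosolic calcium-binding proteins, Calm2, a gene for calmodulin, was at 471, 465 and 465 CPM, while Calb1 and Calb2 were at or near 0. Among pumps and exchangers, the store pump gene Atp2a2 was at 92.4, 87.6 and 104 CPM and Atp2a3 at 2.0, 1.59 and 2.36 CPM. For vitamin D metabolism and receptor partners, Rxra, a partner of Vdr, was at 44.8, 40.2 and 44.6 CPM and the hydroxylase gene Cyp27a1 at 14.8, 19.9 and 13.9 CPM. For paracellular, phosphate and magnesium transport, the claudin gene Cldn15 was at 404, 389 and 423 CPM and Cnnm4 at 42.0, 34.6 and 41.7 CPM. The list medians of the log2 ratio were 0.06 for calcium entry, 0.00 for cytosolic binding, -0.03 for pumps, 0.00 for vitamin D metabolism, 0.07 for other vitamin D responsive genes and 0.02 for the paracellular list, beside 0.01 over all genes.

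Because S100g is known as a duodenal gene, region genes were read beside it. Of 6 genes of the proximal intestine, 3 rose in enterocyte-like cells, where 0.897% of all genes tested rose. The list, like those of the calcium and vitamin D genes, was drawn up with earlier results of these libraries known, so its p-values are not independent evidence. Akp3, an alkaline phosphatase of the duodenum, was at 69.5, 109 and 27.7 CPM (log2 change of 1.68, adjusted p = 8.63e-05, edgeR). Pdx1, a duodenal transcription factor, was at 35.8, 35.8 and 19.0 CPM (log2 0.90, adjusted p = 0.000296, edgeR). Slc40a1 was at 93.9, 108 and 67.1 CPM (log2 0.58, adjusted p = 0.00895, edgeR). With DESeq2 only Pdx1 of these passed (adjusted p = 0.00513), against 0.345 for Akp3 and 0.0912 for Slc40a1.

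The same 3 genes were highest in the Tmprss15 cluster, where Akp3 was at 295, 334 and 135 CPM, Pdx1 at 98.9, 89.0 and 63.5 CPM and Slc40a1 at 339, 335 and 291 CPM. Pdx1 was also higher in the ISC- and TA-like cells of both cKO libraries, at 31.9, 29.1 and 17.5 CPM. The transcription factor genes Onecut2 (171, 181 and 168 CPM) and Gata4 (49.5, 45.2 and 54.4 CPM) did not pass (log2 0.06 and -0.21, adjusted p = 0.836 and 0.353, edgeR). Cybrd1, a duodenal iron reductase gene, had 14, 47 and 2 UMIs and did not pass (adjusted p = 0.0848, edgeR). Of 5 genes of the distal intestine none passed with edgeR or DESeq2, and none of the 4 tested had an unadjusted p below 0.05 (0.0715 to 0.264). Cubn was at 32.3, 29.1 and 33.4 CPM, Slc51a at 289, 278 and 326 CPM and Slc51b at 213, 211 and 234 CPM. The median log2 ratio of the proximal list was 0.43 and that of the distal list -0.11. The proximal median was 0.18 with the enterocyte clusters weighted equally and 0.73 with a pseudocount of 1 CPM, and the distal median was -0.0175 with wider limits on cells. The scRNA-seq methods name no segment, beyond a protocol for another mouse line that uses the proximal jejunum. The labels give no position by library, so genotype and the exact stretch sampled cannot be told apart with 1 WT library.

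**Figure D5:**
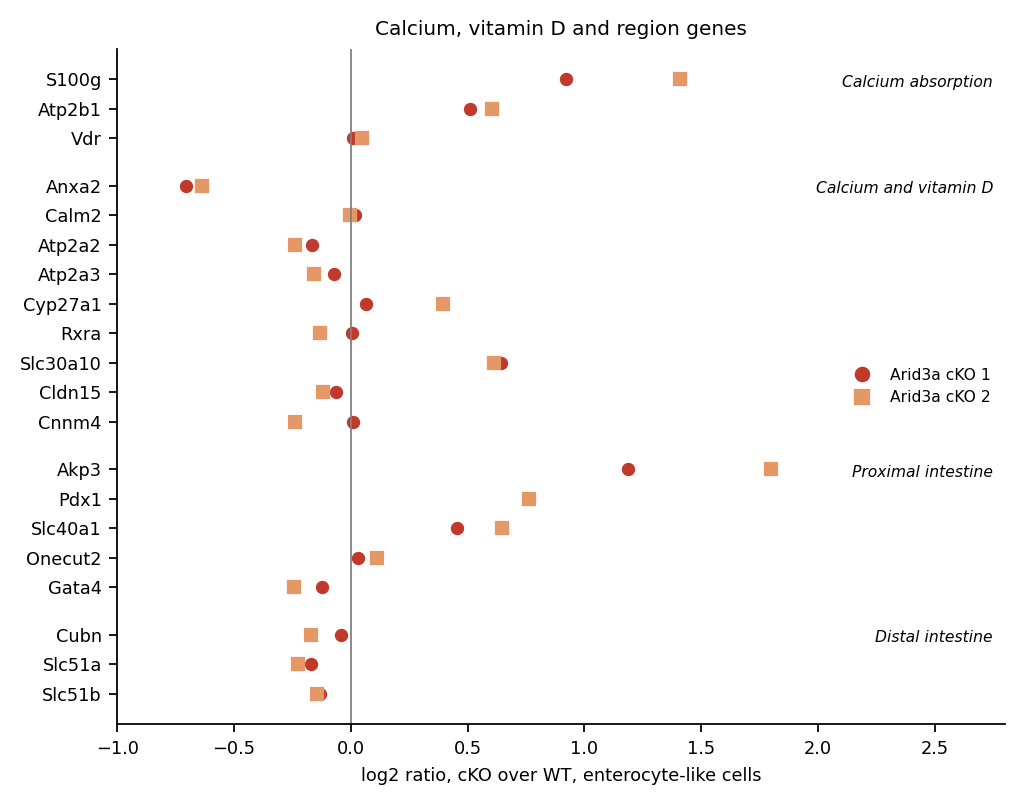
log2 ratio of each Arid3a cKO library to the WT library (CPM + 5) in enterocyte-like cells for the 3 measurable calcium absorption genes and the named genes of the other lists. S100g, Akp3, Pdx1, Slc30a10, Atp2b1 and Slc40a1 lie to the right of 0 in both libraries, Anxa2 lies to the left, and the distal genes lie between -0.23 and -0.04.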

How the data were processed

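Mouse scRNA-seq libraries (2 Arid3a cKO, 1 WT) were analysed. The authors processed the reads with CellRanger (5.0.0 in the matrix headers) and deposited UMI counts, not normalized, for each gene and barcode. The notes list human builds for these mouse libraries, and the build used is not given in the sources used here. Of 51912 gene identifiers, 51633 are in GENCODE M21 (GRCm38), whose coordinates are given.

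Cells with at least 1000 genes and at most 15% mitochondrial UMIs were kept, the study's limits, 5594 of 25554 barcodes. Scrublet (scanpy 1.11.5, seed 1) marked 110 (1.97%), which were kept in the main analysis. Seurat 5.3.0 (R 4.3.3) integrated 3000 features, reduced 2000 to 30 components and clustered at resolution 0.3, with 57 listed genes left out of clustering. Clusters were named from marker lists (3 or more markers among the top 50 genes, or at 1.5-fold). UMIs were summed per library and class. edgeR 4.0.16 (TMM, filterByExpr, Benjamini-Hochberg) and DESeq2 1.42.0 were run on these sums. Only edgeR was also run on simulated data. Intervals are exact Poisson or Clopper-Pearson, and a count of 0 was given a limit of 3 counts. The members, lists and named genes (those called, otherwise the 2 most abundant of a list, region genes of at least 20 CPM, and the 5 most like S100g) were chosen with earlier results of these data known. A gene that this rule names is not reported here.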

Additional observations from a re-analysis of the deposited data

Results flagged for a closer look

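Barcodes outside the limits on genes and mitochondrial UMIs (4711, 5343 and 9906 barcodes, with median mitochondrial shares of 47%, 50.5% and 53.9%) enter no comparison, and the calcium absorption genes were counted in them as well. S100g was at 507 CPM in Arid3a cKO 1 and 623 CPM in Arid3a cKO 2, above the 193 CPM of WT. Atp2b1 was at 248 and 298 CPM, above 156 CPM in WT. Vdr was at 121 and 151 CPM, above 108 CPM in WT. Trpv6 had 13, 53 and 27 UMIs there (0.372, 1.45 and 0.406 CPM), more than among the kept cells, and WT lay between the cKO libraries. Vdr in the Tmprss15 cluster was lower than WT in both cKO libraries (mean log2 ratio of -0.0189), while it was higher in both in ISC-like and enteroendocrine-like cells and in the Dnase1, Gm42418 and unnamed Ccl20 clusters. The difference between these cell groups was not tested, and the Tmprss15 values lie within each other's counting intervals.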

How the results depend on the processing

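The mean log2 ratios of S100g, Atp2b1 and Vdr in enterocyte-like cells stayed above 0 under every alternative run, as did that of S100g in ISC- and TA-like cells, but the Vdr ratio of Arid3a cKO 1 alone was below 0 with TMM scaling, without integration, with wider limits on cells, with clusters weighted as in WT and without the Gm42418 cluster (lowest -0.03). The cells counted as enterocyte-like also changed between alternatives. With the wider limits on cells, the cluster led by Ms4a18 (1350 cells) was unnamed and left out. A cluster of 1106 cells led by Gm42418, with a median of 19% mitochondrial UMIs, was counted in. Without integration the enterocyte-like cluster led by Ms4a18 held 1368 cells, and the Gm42418 cluster was unnamed. These alternatives thus compare partly different cells. Over 17 alternatives and 11 results, 79 of 113 values moved by less than the spread between the cKO libraries (for counts, by less than 1.5 times). For a single gene, leaving out 1 of the 2 cKO libraries must fall within this limit, so those values do not show stability. The limit is also wider where the cKO libraries differ more, as for S100g. With enterocyte clusters weighted equally the mean log2 ratio was 0.79 for S100g, 0.40 for Atp2b1, 0.069 for Vdr, 0.18 for the proximal list and -0.14 for the distal list. With clusters weighted as in WT, Atp2b1 was at 0.41 and the distal list at -0.10. Without integration Atp2b1 was at 0.48, Cyp24a1 at -0.028, S100g in ISC- and TA-like cells at 0.88 and the distal list at -0.14. With a pseudocount of 1 CPM Trpv6 was at 0.31, Cyp24a1 at -0.24, S100g in ISC- and TA-like cells at 0.89, the proximal list at 0.73 and the distal list at -0.14. With the unnamed Ccl20 and Edn2 cluster counted with the enterocyte-like cells, Atp2b1 was at 0.49, Cyp24a1 at -0.026 and the distal list at -0.14. With at least 500 genes and at most 25% mitochondrial UMIs, Cyp24a1 turned from -0.05 to 0.0096, S100g in ISC- and TA-like cells was at 0.84 and the distal list at -0.0175. TMM scaling put the distal list at -0.11. S100g in ISC- and TA-like cells was at 0.59 without the cells marked by Scrublet and at 0.78 without the cell with the most S100g UMIs in each library. Leaving out 1 cKO library at a time gave 0.92 to 1.41 for S100g, 0.51 to 0.61 for Atp2b1 and -0.15 to -0.13 for the distal list. With 10 bins, S100g in the bin nearest the enterocyte end was at 0.05.

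The 297 genes called by edgeR in enterocyte-like cells became 532 with no filter on low counts, 508 with the wider limits on cells, 507 without the Gm42418 cluster, 123 with the unnamed cluster added and 81 with DESeq2, and the calcium and vitamin D genes called became 4 with no filter (Cyp3a11 and Cldn2 added) and 3 with the wider limits or without the Gm42418 cluster (Cyp3a11 added). The cause of these shifts was not tested. Weights as in WT, the added unnamed cluster, the removal of the Gm42418 cluster or of the highest cells, and 10 bins were chosen after seeing the data. Leaving out a cKO library left no residual degree of freedom, so no such test was run for the counts. No paired analysis was possible because WT had 1 library, which shares its number with a single cKO library. Depth limits Trpv6 and Cyp24a1, which had 20 and 25 UMIs in all kept cells.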
